A study of Homo sapiens with 8 samples.

Results

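The 32 genes described here carry out glycolysis, bring hexoses into the cell and pass pyruvate on to lactate or to the mitochondrion. They were followed through every probe set whose only gene symbol in the platform annotation is one of them. This gave 74 of the 54675 probe sets on the array and 30 of the 19775 genes that had such a probe set. The monocarboxylate transporters SLC16A1 and SLC16A3, which are also listed, were not analysed here. The 30 genes comprised 4 hexose transporters, 9 genes of upper glycolysis from hexokinase to triose phosphate isomerase, 3 regulators of phosphofructokinase, 6 genes of lower glycolysis, 2 lactate dehydrogenases and 6 genes of mitochondrial pyruvate entry and oxidation.

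RNA of 8 cultures was hybridized to Affymetrix expression arrays. The cultures were of the human lines labelled SUP-B8 and NALM-6. Each line was grown for 72 h with GSK126 at 0.5 uM or with its solvent DMSO. Each of the 4 groups held 2 biological replicates. GSK126 is an inhibitor of EZH2, the histone methyltransferase that places the repressive mark on lysine 27 of histone H3. Each line is a single cultured line, the labels give no genotype, and the arrays measured whole cultures, in which a change in every cell and a change in the share of cells carrying it cannot be told apart. The same DMSO arrays enter the drug comparison of a line and the comparison of the lines.

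Glycolysis splits a hexose into a pair of pyruvate molecules in the cytosol, with hexokinase trapping the sugar and phosphofructokinase as the main point of control. The PFKFB enzymes make and remove fructose 2,6-bisphosphate, the strongest activator of phosphofructokinase. Pyruvate is either reduced to lactate by lactate dehydrogenase or enters the mitochondrion through the MPC carrier and is oxidized by the pyruvate dehydrogenase complex, which the PDK kinases switch off. Leukaemic lymphoblasts are known for a high glycolytic rate, and many genes of the pathway are textbook targets of the transcription factors HIF-1 and MYC.

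Values are log2 intensities. Each gene is represented by its probe set with the highest mean over the 8 arrays, and levels are not compared between genes because probe sets differ in their response. A difference is given on the log2 scale with its standard error from limma's linear model (2 arrays against 2), and a gene is called changed at a Benjamini-Hochberg adjusted p under 0.05 over the 13161 genes tested. An exact permutation test of 2 arrays against 2 cannot go below p = 0.333 two-sided, so no single gene can be tested outside the model. Array medians lay between 7.18 and 7.24, and a group with all arrays below them is treated as not shown to be above background. All 30 genes entered the test, 28 of them above the median on all 8 arrays, PFKFB2 on 7 and ENO2 on 5. A reading above the median does not by itself show expression. On SUP-B8 DMSO arrays the T cell marker CD3E averaged 8.12 and the stromal marker COL1A1 9.45.

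The correlation over all probe sets was 0.9977 to 0.9982 between replicates and 0.920 to 0.929 between lines. With 2 arrays a group, these values cannot show which array of a pair stands apart. Of 11 B lineage markers 10 were analysed, and all 10 lay above the medians on the arrays labelled SUP-B8. On the arrays labelled NALM-6 7 did, while DNTT, VPREB1 and IGLL1, the last 2 being the surrogate light chain genes, lay below the medians. This goes against the usual description of that line as a precursor B leukaemia. On DMSO arrays DNTT, VPREB1 and IGLL1 averaged 6.86, 6.02 and 6.52 under the label NALM-6 and 13.67, 13.35 and 13.31 under SUP-B8. Whether the labels match the cells was not tested, so SUP-B8 and NALM-6 stand for labels throughout. After GSK126, CD79B (0.55), PAX5 (0.34) and BLNK (0.17) were called higher on the arrays labelled NALM-6, where 39.3% of all tested genes were called. CD22 (-0.57), EBF1 (-0.42) and MME (-0.22) were called lower, as was IGLL1 with both groups below the medians. No B lineage marker was called on the arrays labelled SUP-B8, where 2.25% of all tested genes were. Of 15 markers of T, myeloid, erythroid and stromal cells, 7 passed the filter and 0 were called after GSK126 in either line. Their differences lay between -0.040 and 0.15 on the arrays labelled NALM-6. CD3D, CD3E, CSF3R, HBB, ALAS2, COL1A1 and DCN lay above the medians in both lines, and the mean level of each marker list moved within a narrow range over the 8 arrays (T cell 6.99 to 7.24, myeloid 6.58 to 6.83, erythroid 7.62 to 7.80, stromal 7.61 to 7.78).

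On the arrays labelled NALM-6, GSK126 raised a hexose transporter, an aldolase, both inducible PFKFB enzymes, both hexokinases and several lower glycolysis genes, and lowered another transporter. Of the 30 genes, 14 rose, 1 fell and 15 were not called. With a gene's probe sets averaged, 12 were called higher and 4 lower, PKM (-0.13), MPC2 (-0.24) and PDHB (-0.14) joining SLC2A3, while PDK3 and TPI1 were no longer called. The background of this comparison was wide, with 39.3% of all tested genes called, 20.8% higher and 18.5% lower. Against that background 46.7% of the glycolysis and transport genes rose and 3.33% fell, and their median difference was 0.11 where that of all tested genes was 0.016. The members were chosen with earlier results of these data known, so shares here and below describe them and are not a test. The differences ran from -1.02 for SLC2A3 to 2.22 for SLC2A5, and in 28 of 30 genes the DMSO and GSK126 arrays did not overlap, as in 68.8% of all tested genes. By role, the risers were 2 of 4 transporters, 4 of 9 upper glycolysis genes, 2 of 3 regulators of phosphofructokinase, 4 of 6 lower glycolysis genes, 0 of 2 lactate dehydrogenases and 2 of 6 mitochondrial pyruvate genes. The same test on the SUP-B8 arrays called 0 of these 30 genes, where 2.25% of all tested genes were called.

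**Figure D1:**
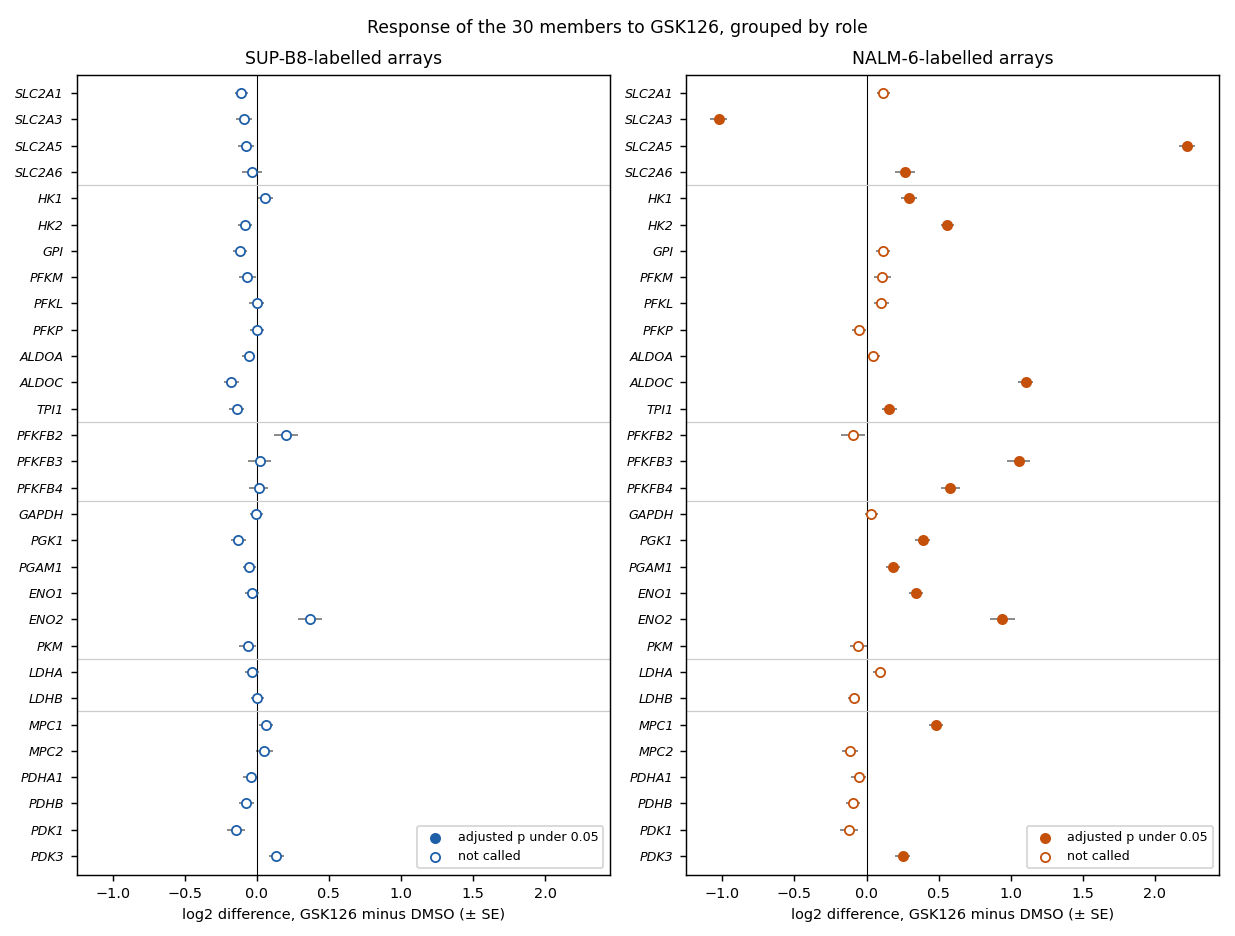
Log2 difference between GSK126 and DMSO arrays (x axis, bars are the standard error of the linear model, 2 arrays against 2) for each of the 30 genes in the arrays labelled SUP-B8 and NALM-6. The points labelled NALM-6 spread from -1.02 (SLC2A3) to 2.22 (SLC2A5), while those labelled SUP-B8 stay between -0.18 and 0.37.

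The promoters of the members that rose most on the arrays labelled NALM-6, and of PGK1 as a member of the core pathway, are shown. Shared regulation of these genes was not tested. Each line gives the 250 bases before an annotated start, 5′ to 3′ on the gene's strand, from RefSeq (GRCh38.p14). Capitals mark the words ACGTG and GCGTG on either strand (read on the other strand as CACGT and CACGC), the cores of the hypoxia response element. The windows are chr1:9069636-9069885 (minus strand) for SLC2A5, chr17:28576896-28577145 (minus) for ALDOC, chr10:6144671-6144920 and chr10:6202682-6202931 (plus) for a pair of PFKFB3 starts, chr12:6914330-6914579 (plus) for ENO2 and chrX:78103998-78104247 (plus) for PGK1.
SLC2A5: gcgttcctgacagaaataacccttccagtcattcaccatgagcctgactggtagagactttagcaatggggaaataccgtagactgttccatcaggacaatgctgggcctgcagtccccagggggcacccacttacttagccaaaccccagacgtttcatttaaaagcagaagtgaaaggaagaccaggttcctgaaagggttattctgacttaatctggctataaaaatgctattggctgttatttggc
ALDOC: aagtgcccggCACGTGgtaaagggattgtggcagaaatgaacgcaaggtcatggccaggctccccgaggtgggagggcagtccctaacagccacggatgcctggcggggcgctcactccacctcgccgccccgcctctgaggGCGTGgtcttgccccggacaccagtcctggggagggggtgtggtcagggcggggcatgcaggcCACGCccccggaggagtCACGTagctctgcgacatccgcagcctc
PFKFB3 upstream start: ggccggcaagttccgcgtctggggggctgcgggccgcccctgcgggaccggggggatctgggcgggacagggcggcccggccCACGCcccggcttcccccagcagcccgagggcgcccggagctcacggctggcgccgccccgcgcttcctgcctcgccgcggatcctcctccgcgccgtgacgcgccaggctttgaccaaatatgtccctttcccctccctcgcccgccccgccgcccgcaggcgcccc
PFKFB3 downstream start: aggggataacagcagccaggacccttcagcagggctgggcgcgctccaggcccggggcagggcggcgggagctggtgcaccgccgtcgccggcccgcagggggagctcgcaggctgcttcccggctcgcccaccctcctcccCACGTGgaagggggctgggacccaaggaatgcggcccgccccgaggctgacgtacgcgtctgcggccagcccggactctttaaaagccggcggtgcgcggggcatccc
ENO2: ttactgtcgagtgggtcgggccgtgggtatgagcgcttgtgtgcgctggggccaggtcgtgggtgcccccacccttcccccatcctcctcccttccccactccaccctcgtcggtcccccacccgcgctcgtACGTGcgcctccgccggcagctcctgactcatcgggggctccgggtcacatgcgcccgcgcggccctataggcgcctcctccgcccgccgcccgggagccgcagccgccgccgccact
PGK1: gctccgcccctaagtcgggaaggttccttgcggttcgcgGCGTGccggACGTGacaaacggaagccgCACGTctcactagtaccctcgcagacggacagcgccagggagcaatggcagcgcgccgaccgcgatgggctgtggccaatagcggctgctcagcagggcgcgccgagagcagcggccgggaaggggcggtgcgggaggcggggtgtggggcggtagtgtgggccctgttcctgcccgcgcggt

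Windows were matched for 28 of the 30 genes, all but SLC2A3 and PFKFB2. ACGTG or GCGTG was present in at least 1 window of 22 of these 28 genes (78.6%) and of 47.4% of all 27305 genes with a window. Genes differ in their number of windows, and by window the shares were 53.8% of 52 and 43.2% of 35116. The words were in 12 of the 14 genes that rose and in 10 of the 14 not called with a window. SLC2A5, the gene with the largest rise, held neither word in its window, and neither did PGAM1. CACGTG, the E-box read by MYC family factors, overlaps ACGTG and was in 25% of the members against 7.73% of all genes. GGGCGG, the GC box, was in 92.9% against 46.2%. By window the shares were 13.5% against 6.34% for CACGTG and 67.3% against 42.6% for GGGCGG. Among the 14 risers and the 14 not called, CACGTG was in 3 and 4 genes and GGGCGG in 13 and 13. Counted singly, ACGTG was in 7 and 8 and GCGTG in 11 and 5. These are counts of letters within the windows on both strands and not measurements of binding.

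Among the hexose transporters, SLC2A5, the fructose transporter GLUT5, had the largest change of any member. It read 10.19 and 10.15 on the DMSO arrays labelled NALM-6 and 12.44 and 12.34 after GSK126. In SUP-B8 it read 10.46 and 10.44 with DMSO and 10.41 and 10.34 after GSK126. The treated NALM-6 arrays thus stood clear of the other 6. The difference within NALM-6 was 2.22 ± 0.057 (SE, adjusted p = 3.03e-07), a 4.67-fold rise. Of its 4 probe sets another gave 2.22, the next 1.25 and the last 0.11, which was not called, and the mean over the 4 was 1.45.

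SLC2A3, the high affinity glucose transporter GLUT3, was the only member called lower. It read 9.24 and 9.30 with DMSO and 8.31 and 8.18 after GSK126 on the arrays labelled NALM-6. The SUP-B8 arrays read 8.66 and 8.64 with DMSO and 8.53 and 8.58 with GSK126. The untreated NALM-6 arrays were the highest of the 8 and the treated ones the lowest. The difference was -1.02 ± 0.058 (adjusted p = 7.61e-06), a 2.03-fold fall, and the other probe sets of this gene gave -0.97 and -0.86, both called.

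SLC2A6, a lysosomal hexose transporter, rose by a smaller amount. Its values were 8.18 and 8.05 with DMSO and 8.34 and 8.42 with GSK126, a difference of 0.27 ± 0.070 (adjusted p = 0.0164). Without replicate 2 of either NALM-6 group the call was lost, at 0.20 without the DMSO array and 0.23 without the GSK126 array. SLC2A1, the basal glucose transporter GLUT1, read 8.65 and 8.61 and then 8.75 and 8.75, a difference of 0.12 ± 0.045 that was not called (adjusted p = 0.0732).

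**Figure D2:**
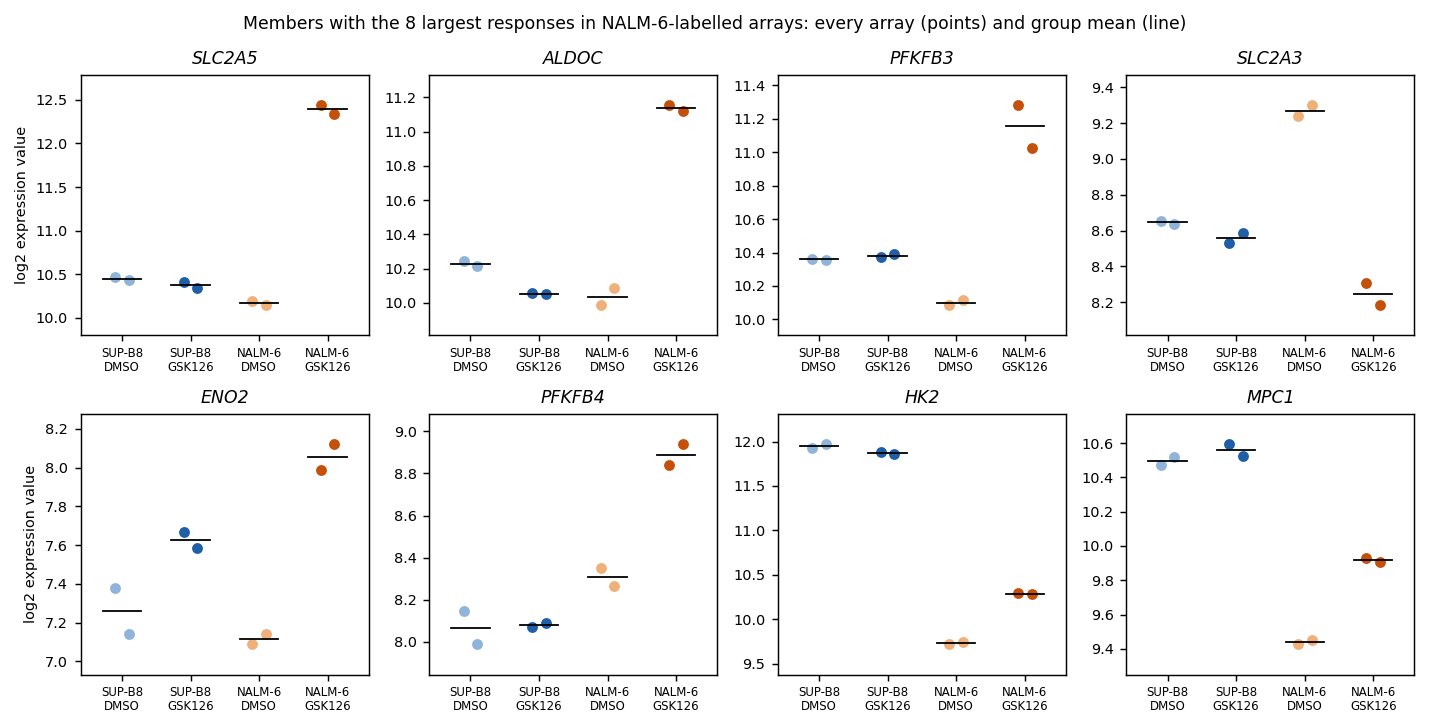
Log2 intensity on each of the 8 arrays (y axis) for the members with the largest responses, 1 panel a gene, with points for single arrays and a bar for the group mean. The GSK126 arrays labelled NALM-6 stand apart from their DMSO arrays in each panel, for SLC2A5 at 12.44 and 12.34 against 10.19 and 10.15, while the SUP-B8 groups differ by at most 0.37, in ENO2.

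In upper glycolysis the aldolase ALDOC rose most. It read 9.99 and 10.09 with DMSO and 11.16 and 11.12 with GSK126 on the arrays labelled NALM-6, against 10.24 and 10.22 and then 10.06 and 10.05 on those labelled SUP-B8. The rise within NALM-6 was 1.10 ± 0.052 (adjusted p = 3.62e-06, 2.15-fold). ALDOA, the aldolase of most tissues, moved by 0.048 ± 0.045 and was not called, and ALDOC is the isoenzyme known best from brain.

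HK2, the inducible hexokinase, read 9.72 and 9.74 with DMSO and 10.30 and 10.28 with GSK126 on the arrays labelled NALM-6. Those labelled SUP-B8 read 11.93 and 11.97 with DMSO and 11.88 and 11.86 with GSK126, so the treated NALM-6 arrays remained below every SUP-B8 array. The rise was 0.56 ± 0.047 (adjusted p = 5.30e-05, 1.47-fold), and another of its probe sets gave 0.32, also called. The remaining probe set was called higher with both NALM-6 groups below the medians, so no size is given. HK1, the constitutive hexokinase, rose by 0.30 ± 0.054 (adjusted p = 0.00297).

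The phosphofructokinase subunits were not called, at 0.11 for PFKM, 0.10 for PFKL and -0.051 for PFKP. GPI, the isomerase between hexokinase and phosphofructokinase, differed by 0.11 ± 0.049 (adjusted p = 0.108). TPI1, triose phosphate isomerase, was called at 0.16 ± 0.054 (adjusted p = 0.0475), but the call was lost in 12 of 16 alternative analyses, among them the omission of any NALM-6 array (0.15 to 0.17) or of either SUP-B8 GSK126 array, which left its value at 0.16.

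Of the regulators of phosphofructokinase 2 of 3 rose. PFKFB3, the isoform with the highest kinase activity, read 10.09 and 10.11 with DMSO and 11.28 and 11.03 with GSK126 on the arrays labelled NALM-6. On the SUP-B8 arrays it read 10.36 and 10.36 with DMSO and 10.37 and 10.39 with GSK126. Its treated NALM-6 arrays differed from each other more than any other pair of this gene, yet both lay above all other arrays. The difference was 1.06 ± 0.078 (adjusted p = 2.90e-05, 2.08-fold).

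PFKFB4, a second inducible isoform, read 8.35 and 8.26 and then 8.84 and 8.94 on the arrays labelled NALM-6, and 8.15 and 7.99 and then 8.07 and 8.09 on those labelled SUP-B8. It rose by 0.58 ± 0.068 (adjusted p = 0.000301) within NALM-6, with 0.26 in its other probe set, which was not called. PFKFB2, known as the heart isoform, gave -0.097 ± 0.084 (adjusted p = 0.415), with overlapping arrays and levels near the array medians.

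In lower glycolysis the enolase ENO2, known as the neuronal isoform, had the largest difference. It read 7.09 and 7.14 on the DMSO arrays labelled NALM-6, both below the array medians, and 7.99 and 8.12 after GSK126. On the SUP-B8 arrays it read 7.38 and 7.14 with DMSO and 7.67 and 7.59 with GSK126. The fitted difference within NALM-6 was 0.94 ± 0.085 (adjusted p = 7.96e-05), and measured from the array medians the rise was at least 0.86. ENO1, the enolase of most cells, rose by 0.34 ± 0.047 (adjusted p = 0.000648), with 2 of its 4 probe sets called and a mean over the 4 of 0.22, 1 of the uncalled pair being below the medians with DMSO.

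PGK1, the first ATP-forming enzyme of the pathway, read 13.08 and 13.05 and then 13.46 and 13.46 on the arrays labelled NALM-6. It rose by 0.39 ± 0.055 (adjusted p = 0.000779), and 4 of its 6 probe sets were called higher, at 0.39 to 0.49. PGAM1, phosphoglycerate mutase, rose by 0.18 ± 0.046 (adjusted p = 0.0138), a call lost without NALM-6 DMSO replicate 2 (0.17) or either NALM-6 GSK126 array (0.19 and 0.18). GAPDH, often used as a reference transcript, moved by 0.033 ± 0.044 and its 6 probe sets lay between 0.017 and 0.033. At 14.78 to 14.84 GAPDH lay close to the highest values on the arrays, which were 15.06 to 15.11. PKM, pyruvate kinase, gave -0.056 ± 0.059 with overlapping arrays.

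The lactate dehydrogenases were not called, at 0.091 ± 0.047 for LDHA and -0.087 ± 0.044 for LDHB. LDHA read 13.99 and 14.01 with DMSO and 14.11 and 14.08 with GSK126, and LDHB 14.39 and 14.40 and then 14.32 and 14.30. In each of the pair the arrays did not overlap between groups, which is the case for most tested genes in this comparison.

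Of the genes of mitochondrial pyruvate entry, MPC1, a subunit of the mitochondrial pyruvate carrier, rose most. It read 9.43 and 9.45 and then 9.93 and 9.91 on the arrays labelled NALM-6, while the SUP-B8 arrays lay above all of these at 10.47 and 10.52 with DMSO and 10.60 and 10.52 with GSK126. The rise was 0.48 ± 0.050 (adjusted p = 0.000156, 1.39-fold). The mean of its probe sets, 1 of them below the median on all arrays, was 0.29. Its partner subunit MPC2 gave -0.11 ± 0.057, not called, and its second probe set fell by 0.36.

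PDHA1 and PDHB, subunits of the pyruvate dehydrogenase E1 enzyme, gave -0.054 and -0.092, neither called. The kinase PDK1 gave -0.12 ± 0.062 (adjusted p = 0.165). PDK3 was called higher by its representative probe set, at 0.25 ± 0.053 (adjusted p = 0.00614), but 3 of its other probe sets were called lower at -0.32, -0.34 and -0.32, 1 was at 0.18, and the mean over the 5 was -0.11, not called. Its direction therefore differed between probe sets, and the call was also lost without NALM-6 GSK126 replicate 1, at 0.20.

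**Figure D3:**
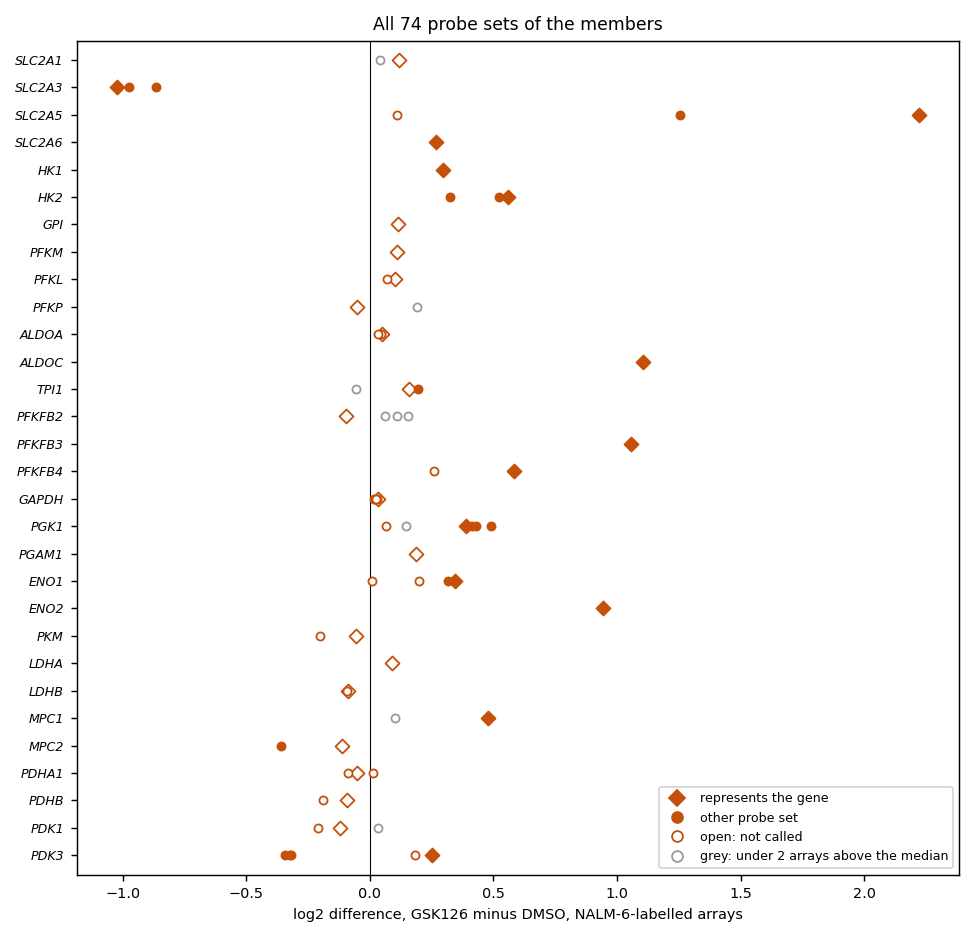
Log2 difference between GSK126 and DMSO arrays labelled NALM-6 (x axis) for each of the 74 probe sets of the 30 genes, with the probe set that represents its gene marked. Probe sets of SLC2A3 lie together between -1.02 and -0.86, whereas those of PDK3 lie on both sides of 0 between -0.34 and 0.25.

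Tested 1 probe set at a time, 21 of the 74 were called higher and 7 lower on the arrays labelled NALM-6. Of all probe sets on the array 20.5% were called, but that share includes every dim probe set. Of the 74, 65 exceeded the array median on at least 2 arrays, so the shares are not of like probe sets.

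On the arrays labelled SUP-B8, 0 of the 30 genes were called after GSK126, where 2.25% of all tested genes were, 1.91% higher and 0.334% lower. At an unadjusted p under 0.05 there were 9, where 16.7% of all tested genes were. The differences lay between -0.18 for ALDOC and 0.37 for ENO2, with a median of -0.039 where that of all tested genes was -0.022, and 10 were above 0 and 20 below. ENO2 had the largest difference, 0.37 ± 0.085 (adjusted p = 0.0769), and it was called without SUP-B8 DMSO replicate 1, at 0.49. ALDOC differed by -0.18 ± 0.052 (adjusted p = 0.148), with arrays that did not overlap. In 21 of 30 genes the arrays did not overlap between groups, as in 49.5% of all tested genes. With variances shrunk to a trend, limma called 4 members: ENO2 higher, and GPI, TPI1 and PGK1 lower at -0.12, -0.14 and -0.13.

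The difference between the responses of the lines was tested as an interaction, SUP-B8 response minus NALM-6 response. Of the 30 genes 13 were called lower and 1 higher, where 25.4% of all tested genes were called, 14.5% lower and 10.9% higher. Over all genes that was 1440 higher and 1903 lower, and 1562 and 1379 once each array was centred on its median. SLC2A5 gave -2.30 ± 0.080 (adjusted p = 4.96e-06), ALDOC -1.28 ± 0.073 (adjusted p = 3.25e-05) and PFKFB3 -1.04 ± 0.11 (adjusted p = 0.000464). HK2 gave -0.64, ENO2 -0.57, PFKFB4 -0.57, PGK1 -0.52, MPC1 -0.42 and ENO1 -0.38, all called. SLC2A3 was the call in the other direction, at 0.94 ± 0.082 (adjusted p = 0.000171).

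These 10 differences kept their calls in all alternatives, including the omission of each array. With a gene's probe sets averaged, SLC2A5 gave -1.48 and PFKFB4 -0.37. The remaining 4, TPI1 at -0.30, PGAM1 at -0.24, GPI at -0.23 and SLC2A1 at -0.23, had adjusted p-values of 0.0235 to 0.0444 and lost their calls when single arrays were left out. For GPI this held for every array but SUP-B8 DMSO replicate 1 (-0.19 to -0.24), for PGAM1 for every array but SUP-B8 DMSO replicate 2 (-0.21 to -0.25), and for SLC2A1 for every array but NALM-6 DMSO replicate 1 (-0.21 to -0.23). For TPI1 it held for every array but replicate 1 of the DMSO groups (-0.24 to -0.32). GPI and SLC2A1 were called here although neither line's own response was. HK1 (-0.24, adjusted p = 0.0545) and SLC2A6 (-0.30, adjusted p = 0.0571) rose in NALM-6 and were not shown to respond differently in SUP-B8. HK1 was called without NALM-6 DMSO replicate 2 (-0.29), SLC2A6 without replicate 1 of either DMSO group (-0.37 each), and PFKFB2, at 0.30 otherwise, without SUP-B8 DMSO replicate 1 (0.41).

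With DMSO alone the lines differed in most of these genes, as they did genome-wide. Of the 30, 19 were higher in SUP-B8 than in NALM-6, 6 were lower and 5 were not called, where 68.3% of all tested genes were called, 37.8% higher and 30.6% lower. In 29 of 30 genes the DMSO arrays of the lines did not overlap, as in 81.1% of all tested genes. The median difference was 0.21 against 0.038 for all tested genes. HK2 differed most, by 2.22 ± 0.047 (adjusted p = 2.12e-09, 4.66-fold), and its other probe sets gave 1.64 and, with the NALM-6 arrays below the medians, at least 1.55. MPC1 was higher in SUP-B8 by 1.06 ± 0.050 (adjusted p = 2.03e-07).

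PFKM, the muscle-type phosphofructokinase subunit, read 11.62 and 11.74 on the DMSO arrays labelled SUP-B8 and 10.67 and 10.73 on those labelled NALM-6, a difference of 0.98 ± 0.059 (adjusted p = 9.55e-07). SLC2A1 was higher in SUP-B8 by 0.62 ± 0.045 (adjusted p = 3.19e-06), PDHB by 0.58 ± 0.049 (adjusted p = 8.13e-06) and PGK1 by 0.58 ± 0.055 (adjusted p = 1.64e-05). The glucose transporters thus ran in opposite directions, since SLC2A3 was lower in SUP-B8 by -0.62 ± 0.058 (adjusted p = 1.54e-05). PDK1 read 10.54 and 10.70 in SUP-B8 and 11.16 and 11.12 in NALM-6, a difference of -0.52 ± 0.062 (adjusted p = 7.95e-05).

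By role, 3 of 4 transporters, 7 of 9 upper glycolysis genes, 1 of 3 regulators, 4 of 6 lower glycolysis genes, LDHA of the lactate dehydrogenases and 3 of 6 mitochondrial genes were higher in SUP-B8. The genes lower there were SLC2A3, PFKFB2, PFKFB4, MPC2, PDK1 and PDK3. PFKL, ALDOA, GAPDH, ENO2 and LDHB were not called. PKM was called higher by 0.21 while its second probe set was called lower at -0.28 and the mean of the pair was -0.038, not called. SLC2A5 was called higher by 0.28, with another of its probe sets called lower at -0.31 or beyond, the SUP-B8 arrays being below the medians, and a mean over its probe sets of 0.046, not called. The mean over probe sets was -0.75 for PDK3, -0.34 for MPC2, -0.32 for PDK1 and 0.28 for PFKP, where the representative probe sets gave -0.25, -0.16, -0.52 and 0.14. The means of PDK1 and PFKP each include a probe set below the medians on all arrays.

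Of the 25 line differences called, 16 kept their call whichever array was left out and 9 did not. Without SUP-B8 DMSO replicate 2 the calls of PFKFB2 (-0.12), PFKFB4 (-0.16), TPI1 (0.13), SLC2A6 (0.14), PKM (0.18) and PFKFB3 (0.26) were lost, and ENO2, whose NALM-6 arrays lay below the medians, was called higher. Without NALM-6 DMSO replicate 1 those of ALDOC (0.14), PFKFB2 (-0.20), PFKFB4 (-0.20) and PFKFB3 (0.25) were lost, and without NALM-6 DMSO replicate 2 those of PFKFB2 (-0.27), SLC2A6 (0.14), TPI1 (0.17) and PKM (0.15). PFKFB3 also lost its call without SUP-B8 DMSO replicate 1 (0.26). PFKP lost it without any array but NALM-6 DMSO replicate 2 (0.11 to 0.14) and MPC2 without any array but NALM-6 DMSO replicate 1 (-0.097 to -0.19).

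**Figure D4:**
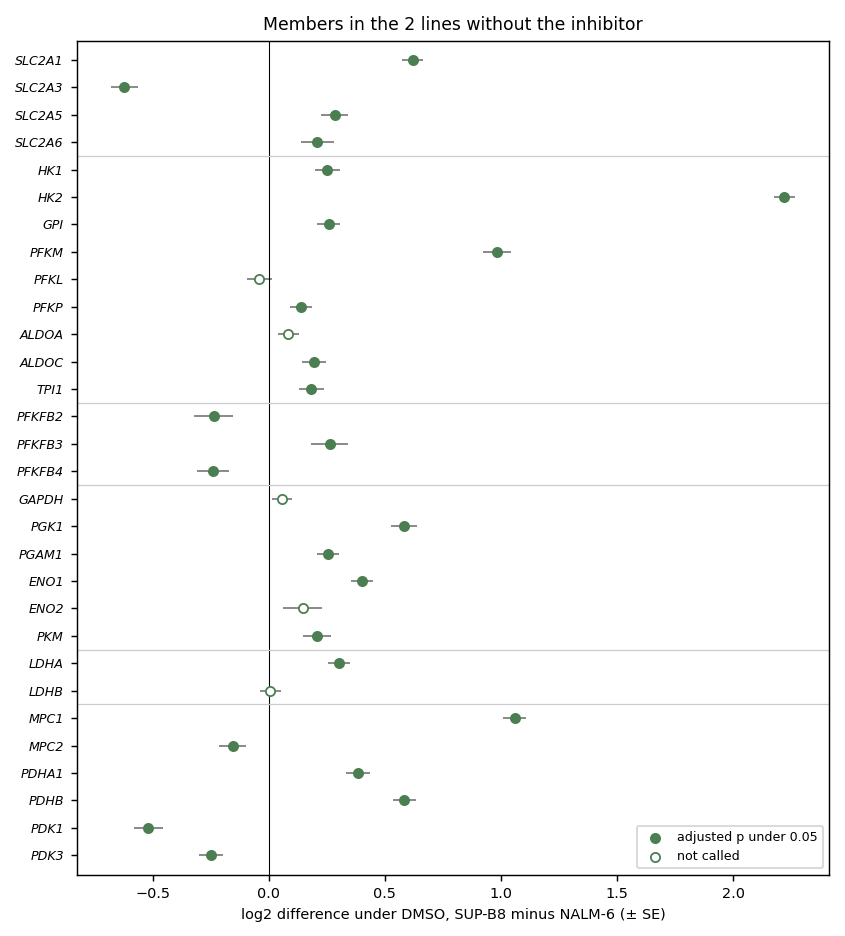
Log2 difference between DMSO arrays labelled SUP-B8 and DMSO arrays labelled NALM-6 (x axis, bars are the standard error, 2 arrays against 2) for the 30 genes, with open points for genes not called. HK2 lies farthest out at 2.22, followed by MPC1 at 1.06 and PFKM at 0.98, and SLC2A3 lies lowest at -0.62.

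Genes next to these pathways changed in both directions on the arrays labelled NALM-6, as did tested genes at large. Of all tested genes 39.3% were called there, 20.8% higher and 18.5% lower, with a median of 0.016. The lists of neighbouring genes too were chosen with earlier results of these data known, so the counts are descriptions. Of 24 further genes of glycolysis and pyruvate metabolism tested, 8 rose and 7 fell after GSK126, with a median of 0.052. MINPP1, a phosphatase that also acts on 2,3-bisphosphoglycerate, rose by 0.57 ± 0.067 (adjusted p = 0.000315) and PGM1, which links glycogen to glycolysis, by 0.46 ± 0.057 (adjusted p = 0.000401). PGAM5, a mitochondrial phosphatase, changed by -0.59 ± 0.069 (adjusted p = 0.000316). TIGAR, which removes fructose 2,6-bisphosphate, changed by -0.53 ± 0.060 (adjusted p = 0.000247).

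Of 14 genes of the pentose phosphate pathway and hexose side branches, 3 rose and 5 fell, with a median of -0.12. Called were 57.1%, against 39.3% of all tested genes. KHK, the fructose kinase that acts on the sugar SLC2A5 carries, rose by 0.75 ± 0.060 (adjusted p = 4.38e-05), and H6PD, a hexose 6-phosphate dehydrogenase of the endoplasmic reticulum, by 0.44 ± 0.063 (adjusted p = 0.000813). GNPDA1, an amino sugar deaminase, changed by -0.37 ± 0.073 (adjusted p = 0.00441), and RPIA, ribose 5-phosphate isomerase, by -0.32 ± 0.048 (adjusted p = 0.00114). Of 8 gluconeogenesis and glycogen genes 4 rose and 0 fell: PCK2, the mitochondrial PEP carboxykinase, by 0.83 ± 0.055 (adjusted p = 1.66e-05), the glycogen phosphorylase PYGB by 0.35, the glycerophosphate dehydrogenase GPD2 by 0.32 and the glycogen synthase GYS1 by 0.17.

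Among 24 regulators of glucose uptake and glycolysis, 4 rose and 5 fell on the arrays labelled NALM-6, with a median of -0.016. That is 37.5% called, near the 39.3% of all tested genes. MYC rose by 0.60 ± 0.050 (adjusted p = 5.27e-05) and MLXIP, a glucose-sensing transcription factor, by 0.59 ± 0.048 (adjusted p = 4.87e-05). TXNIP, which restrains glucose uptake, changed by -0.44 ± 0.075 (adjusted p = 0.00222). TBC1D4, a regulator of glucose transporter traffic, was called higher, but both NALM-6 groups lay below the array medians and no size is given.

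Of 20 hypoxia-responsive genes outside glycolysis 10 rose and 3 fell, with a median of 0.22. Of all tested genes 20.8% rose and 18.5% fell. DDIT4, an inhibitor of mTORC1 signalling, rose by 1.31 ± 0.069 (adjusted p = 5.39e-06), INSIG2, a sterol regulator, by 0.87 ± 0.053 (adjusted p = 1.07e-05) and MIR210HG, the host transcript of a hypoxia-induced microRNA, by 0.74 ± 0.11 (adjusted p = 0.0010). P4HA2, a collagen prolyl hydroxylase, was called higher with both NALM-6 groups below the medians. KDM3A, a histone demethylase, changed by -0.63 ± 0.061 (adjusted p = 0.000117), and it was 1 of the 3 that fell.

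In SUP-B8 the same lists held 3 calls, where 2.25% of all tested genes were called. They were 1 of 14 pentose phosphate and side branch genes, 1 of 8 gluconeogenesis and glycogen genes and 1 of 24 regulators. Whether these calls hold in the alternatives was not examined. PRPS2, which makes phosphoribosyl pyrophosphate, rose by 0.37 ± 0.074 (adjusted p = 0.0479), GPD2 rose by 0.37 ± 0.063 (adjusted p = 0.0280), and PIK3CD, a phosphoinositide kinase subunit, changed by -0.25 ± 0.046 (adjusted p = 0.0399). The lists of further glycolysis genes and of hypoxia-responsive genes had 0 calls in limma's fit there, with 8 of 24 and 7 of 20 genes at an unadjusted p under 0.05, a threshold met by 16.7% of all tested genes.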

How the data were processed

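The table deposited by the authors holds log2 intensities of 54675 probe sets on 8 arrays, a unit inferred from the range of the values. Per the submitters' processing notes MAS5 and RMA were applied. Not given in the sources used here are their roles and versions. Values were used without transformation, and a normalization of this kind would hide a change shared by most transcripts. No detection calls were used, and 2 arrays a group limit the precision. That replicates are biological is taken from the labels.

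A unique gene symbol was given for 41097 probe sets, more than 1 symbol for 1801, and 11777 stay unnamed here. A gene was tested if its probe set of highest mean exceeded the array median of all probe sets on at least 2 of 8 arrays. limma 3.58.1 in R 4.3.3 fitted 1 mean per group with 4 residual degrees of freedom, and was tested on simulated data. The members and lists were chosen with earlier results of these data known. Described in full were the 8 called members of largest difference per comparison, without overlap between arrays for the drug comparisons; from other lists up to 4 called genes were named, with PIK3CD, PRPS2 and GPD2 as the only calls of theirs in SUP-B8. Alternatives were the omission of each array, no filter, averaged probe sets, all probe sets, renewed scaling, another variance prior, 4 arrays only and a replicate block. SLC16A1 and SLC16A3 were not analysed here. Promoters were read from RefSeq windows of GRCh38.p14.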

Additional observations from a re-analysis of the deposited data

Results flagged for a closer look

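For 14 of the 30 genes the response to GSK126 differed between the lines by the interaction term of limma's fit (SUP-B8 response minus NALM-6 response, each over 2 arrays against 2). Of all tested genes 25.4% were called. Only 10 of the 14 calls held in all alternatives. Of 15 alternatives, TPI1 lost its call in 9, PGAM1 and GPI in 11 each and SLC2A1 in 13. The hexose transporters gave -2.30 for SLC2A5, 0.94 for SLC2A3 and -0.23 for SLC2A1. Upper glycolysis gave -1.28 for ALDOC, -0.64 for HK2, -0.30 for TPI1 and -0.23 for GPI. The regulators of phosphofructokinase gave -1.04 for PFKFB3 and -0.57 for PFKFB4. Lower glycolysis gave -0.57 for ENO2, -0.52 for PGK1, -0.38 for ENO1 and -0.24 for PGAM1, and the pyruvate carrier gave -0.42 for MPC1. For ENO2 the value rests on a NALM-6 DMSO group below the array medians. For GPI and SLC2A1 neither line's own response was called.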

How the results depend on the processing

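Over 16 alternatives, 1744 of 1886 recomputed member values kept their call and direction or stayed uncalled. A further 109 lost a call with the sign kept, 31 gained one, and 2 called values changed sign and were no longer called. Among the 1744, 42 uncalled values changed sign. With probe sets averaged per gene, PDK3 in NALM-6 became -0.11 and PKM between the lines -0.038. Of the called members, 11 of 15 in NALM-6, 10 of 14 for the interaction and 15 of 25 between the lines kept their call in all alternatives. The SUP-B8 response was the least stable. Over all genes its 296 calls became 160 without the filter, 777 with the trended robust prior (504 higher, 273 lower), 191 with only the 4 arrays of the comparison, and 27 to 217 when 1 array was left out. Among the members its 0 calls became 1 with centred arrays, 4 with the trended robust prior, 1 with the replicate block, and 0 to 1 when 1 array was left out. Member counts lay at 12 to 18 in NALM-6, 10 to 17 for the interaction and 18 to 27 between the lines.

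Replicate numbers did not pair the samples: same-numbered arrays' deviations correlated at -0.042 within SUP-B8, -0.018 within NALM-6 and 0.130 between the DMSO groups. With the replicate number as a block, calls over all genes were 213 in SUP-B8, 4730 in NALM-6, 2898 for the interaction and 9055 between the lines, and member calls 1, 14, 11 and 25.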

Other observations

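A pair of probe sets annotated to both SLC2A3 and its near copy SLC2A14, which cannot be told apart by them, also read lower after GSK126 on the arrays labelled NALM-6, by -0.75 ± 0.086 and -0.68 ± 0.082 (limma over all probe sets, adjusted p = 0.000402 and 0.000515, 2 arrays against 2). In SUP-B8 they gave -0.053 and -0.021, not called.

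With DMSO alone, the lines differed in related genes (limma, 2 arrays against 2), as they did in 68.3% of all tested genes. The genes named are examples, and fitted differences reached -3.23 among side branch genes and 5.13 among regulators. GBE1, the glycogen branching enzyme, was higher in SUP-B8 by 2.84 ± 0.071 (adjusted p = 5.43e-09). GALM, which interconverts the anomers of hexoses, was higher by 1.92 ± 0.14 (adjusted p = 3.59e-06). AK4, a mitochondrial adenylate kinase, was higher by 2.51 ± 0.062 (adjusted p = 5.08e-09). PDHX, a structural subunit of the pyruvate dehydrogenase complex, was lower in SUP-B8, at -1.75 ± 0.056 (adjusted p = 2.17e-08), as was HIF1A at -0.74 ± 0.046 (adjusted p = 1.15e-06), and MYC was higher by 1.26 ± 0.050 (adjusted p = 7.74e-08). After GSK126, AK4 rose by 0.50 ± 0.062 and PDHX changed by -0.24 ± 0.056 in NALM-6, neither was called in SUP-B8, and GBE1 and GALM were called in neither line.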
